A study of Mus musculus with 4 samples.

Results

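The complement system was followed through 9 genes in microglia, the tissue macrophages of the retina. The genes were chosen by symbol, with earlier results of these data known, and all 9 were found among the 15586 genes of the table. They encode the C1q chains (C1qa, C1qb, C1qc), the central component C3, the classical pathway component C4b, the receptors of the anaphylatoxins (C3ar1, C5ar1) and the subunits of complement receptor 3 (Itgam, Itgb2). The TAK1 knockout group (TAK1_KO, 2 libraries) was made from Cx3cr1CreER/+ mice with floxed Tak1 that were injected with tamoxifen at 75 mg/kg for 5 days. The genotype label of these libraries reads Tak3fl/fl where the protocol reads Tak1fl/fl. The control group (CON, 2 libraries) carried Cx3cr1CreER/+;Tak1fl/fl as well and was injected with corn oil for 5 days. Both groups therefore share the Cre allele in 1 copy of Cx3cr1, a gene that monocytes and other macrophages also use, and the effects of the drug and of the deletion cannot be told apart. The mice were 2 months old, each library held 200 cells sorted on EYFP, and the labels do not say which animals gave which library, so p-values measure only the spread between these libraries, which may be technical.

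C1q is assembled from A, B and C chains and starts the classical pathway when it binds antibody, debris or synapses. The pathway then cleaves C4 and C3, leaves C3 fragments on the surface, and releases the anaphylatoxins C3a and C5a. Microglia are a main source of C1q in the brain and retina, and they take up C3-tagged material through complement receptor 3, the integrin formed by CD11b (Itgam) and CD18 (Itgb2).

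Promoters are shown for C1qb and C1qc, which read higher in both knockout libraries than in both controls, and for C3ar1, which read lower in both. The windows run from 250 bases before to 50 bases after an annotated start (RefSeq, GRCm38.p6), all on the minus strand, 5′ to 3′. They lie at chr4:136886151-136886450 for C1qb, chr4:136892865-136893164 for C1qc and chr6:122856108-122856407 for C3ar1.
C1qb: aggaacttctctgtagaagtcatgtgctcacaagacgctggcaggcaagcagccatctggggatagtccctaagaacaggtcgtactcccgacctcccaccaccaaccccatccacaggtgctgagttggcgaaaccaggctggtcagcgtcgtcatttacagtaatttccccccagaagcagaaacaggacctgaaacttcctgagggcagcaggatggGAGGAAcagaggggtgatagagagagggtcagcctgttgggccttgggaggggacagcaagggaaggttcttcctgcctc
C1qc: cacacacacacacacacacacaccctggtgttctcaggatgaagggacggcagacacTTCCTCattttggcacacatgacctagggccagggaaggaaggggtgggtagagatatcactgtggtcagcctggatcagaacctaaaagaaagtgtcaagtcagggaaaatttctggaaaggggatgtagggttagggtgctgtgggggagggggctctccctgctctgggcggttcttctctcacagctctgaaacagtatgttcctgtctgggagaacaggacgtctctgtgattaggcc
C3ar1: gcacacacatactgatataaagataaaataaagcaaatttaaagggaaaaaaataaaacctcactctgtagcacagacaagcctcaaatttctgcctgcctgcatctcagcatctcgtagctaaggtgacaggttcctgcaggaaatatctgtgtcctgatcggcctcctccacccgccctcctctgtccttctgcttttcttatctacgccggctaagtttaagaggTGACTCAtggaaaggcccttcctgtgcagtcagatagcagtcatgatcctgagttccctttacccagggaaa
Capitals mark matches, on either strand, to GAGGAA (a core of sites bound by PU.1, the macrophage transcription factor) and TGANTCA (AP-1, a transcription factor that TAK1 signalling is known to activate), searched separately. The C1qb and C1qc windows each hold 1 match to the PU.1 letters and none to the AP-1 letters. The C3ar1 window holds 1 match to the AP-1 letters and none to those of PU.1. Of 32851 such windows in the table, 28.3% hold the PU.1 letters and 7.81% the AP-1 letters. Windows were found for 6 of the 9 genes. Itgam has 3 matches to the PU.1 letters, and C3 and C5ar1 have none to either motif. C1qa, C4b and Itgb2 have no entry. A match is a run of letters, and binding was not measured.

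Values are FPKM, fragments scaled to transcript length and library size, and log2 fold changes are knockout over control on the log2(FPKM + 1) scale. FPKM summed to 823229 and 812009 in knockout 1 and 2 and to 969700 and 863652 in control 1 and 2, and read depth is unknown. More genes reached 1 FPKM in knockout 1 and 2 (6055 and 5628) than in control 1 and 2 (4481 and 3777). From highest to lowest, C1qb and C1qc put the libraries in this same order. The part of this difference in the C1q values was not tested. Tested were the 7823 genes that averaged 1 FPKM or more, of which 26.4% reached 1 FPKM in every library. The TAK1 gene itself, Map3k7, read 0.02 and 0.08 FPKM in the knockouts and 0.03 and 0 FPKM in the controls, too low to check the labels. The median log2 fold change of the tested genes was 0.94, and it was -0.11 among the 1177 genes with a mean of 100 FPKM or more.

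C1q transcripts averaged 3.53-fold to 4.08-fold higher in the knockout libraries as deposited. The rise was smaller after median ratio scaling, which also lowered the median of genes with a mean of 100 FPKM or more. C1qb, the B chain (chromosome 4, 136880126 to 136886200, minus strand), read 7989.5 and 3146 FPKM in knockout 1 and 2, against 1897 and 835 FPKM in control 1 and 2. C1qc, the C chain (chromosome 4, 136889801 to 136892936), read 4270.1 and 2317 FPKM in the knockouts, against 1135 and 731 FPKM in the controls. For both genes knockout 1 was highest, control 2 was lowest, and the groups did not overlap. C1qa, the A chain (chromosome 4, 136895916 to 136898844), read 908 and 173 FPKM in the knockouts, against 187 and 95.35 FPKM in the controls. Here knockout 2 lay just below control 1, so the groups overlapped. The genes lie side by side within 18.7 kb, each with 3 exons in its longest coding transcript.

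The means were 5568 ± 3425 FPKM in knockouts and 1366 ± 751 FPKM in controls for C1qb (SD, n = 2 each), and 3293 ± 1381 FPKM in knockouts and 933 ± 286 FPKM in controls for C1qc (SD, n = 2 each). For C1qb the 4.08-fold gap between group means exceeded the fold between libraries of a group, which was 2.54 in the knockouts and 2.27 in the controls. The same held for C1qc, at 3.53-fold between groups, 1.84-fold between knockouts and 1.55-fold between controls. For C1qa it did not: the group means, 541 ± 519.6 FPKM in knockouts and 141 ± 65.1 FPKM in controls (SD, n = 2 each), lay 3.83-fold apart, while the knockout libraries lay 5.24-fold apart and the controls 1.97-fold. By level, C1qb was the 8th and 26th highest gene in knockout 1 and 2 and the 61st and 189th in control 1 and 2. C1qc ranked 18 and 35 in the knockouts and 127 and 221 in the controls, and C1qa ranked 125 and 823 in the knockouts and 762 and 1252 in the controls.

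No complement gene passed limma's moderated test with Benjamini-Hochberg adjustment over all genes. C1qb had a log2 fold change of 1.99 ± 0.57 (SE), with a 95% interval of 0.60 to 3.38 and a limma adjusted p = 0.559. For C1qc it was 1.79 ± 0.42 (SE), with a 95% interval of 0.75 to 2.82 and a limma adjusted p = 0.559. For C1qa it was 1.56 ± 0.99 (SE), with a 95% interval of -0.87 to 3.99 and a limma adjusted p = 0.698. After median ratio scaling the log2 fold changes were 1.06 for C1qb, 0.85 for C1qc and 0.63 for C1qa, and that of C1qa was 0.37 without knockout 1. Under that scaling the median of genes with a mean of 100 FPKM or more was -1.12. Relative to it the values were 2.18 for C1qb, 1.97 for C1qc and 1.75 for C1qa, against 2.1, 1.9 and 1.67 as deposited. Relative to the median of all tested genes they were 0.78, 0.57 and 0.35, against 1.05, 0.85 and 0.62. Of the 7823 tested genes 0% were called in either direction, 6.07% were higher at an unadjusted p under 0.05 and 1.62% were lower. Of the 7 complement genes tested, 2 were higher at that level, C1qb and C1qc, and 0 were lower. With 2 libraries against 2, an exact two-sided permutation test of a single value cannot go below p = 0.333.

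**Figure D1:**
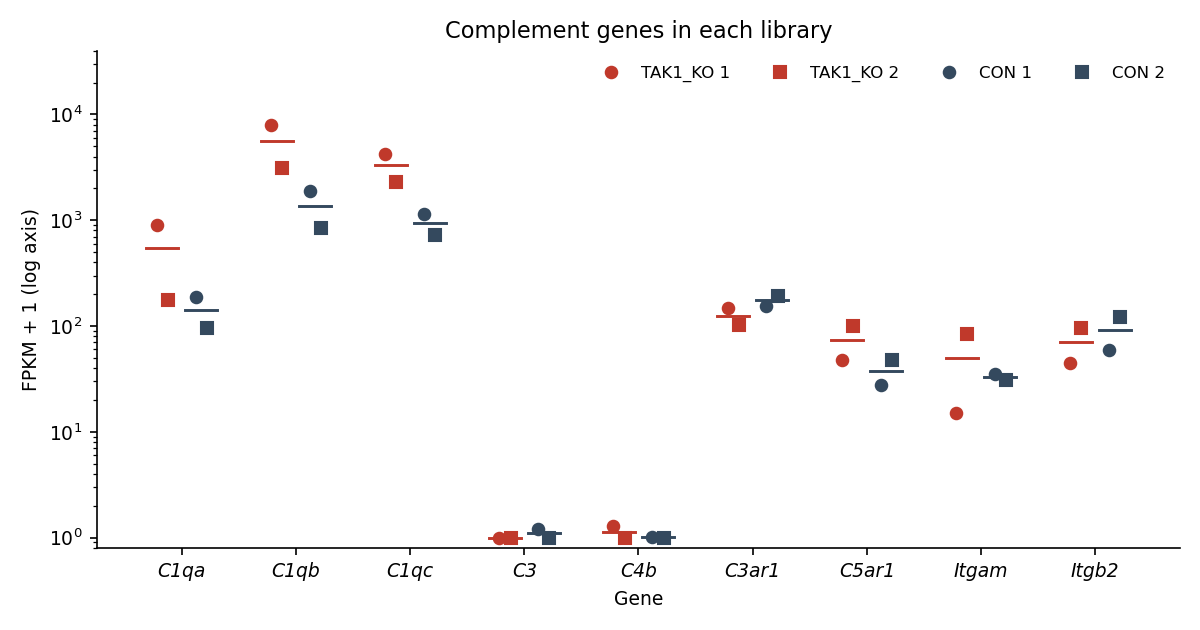
FPKM + 1 on a log axis for the 9 complement genes in each library, knockout (red) left of control (dark), with circles for library 1, squares for library 2 and lines at group means. C1qb and C1qc are the genes whose knockout points, at 2317 FPKM and above, all lie above the control points, while C3 and C4b lie at the bottom of the axis in every library.

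Non-overlap of the groups was common in these data. Both knockout libraries lay above both controls in 27.8% of tested genes, and in 2 of the 7 complement genes, C1qb and C1qc. Both lay below in 11.4% of tested genes, and in 1 of the 7, C3ar1. Among the 2063 genes that read 1 FPKM or more in every library, as all 7 did, the shares were 19% above and 23.6% below. Neither count is far from these shares. The median log2 fold change of the 7 was 0.91, against 0.94 for all tested genes and -0.09 for the 2063.

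A log2 fold change as large as that of C1qb or larger occurred in 30% of all tested genes, and in 11.2% of those with a mean of 100 FPKM or more. For C1qc the shares were 34% and 12.4%, and for C1qa they were 38.4% and 14.4%. Of the 134 genes with a mean of 1000 FPKM or more, a limit chosen after the values were seen, C1qb had the 3rd largest log2 fold change and C1qc the 4th. With a mean of 933 FPKM in the controls, C1qc passed this limit only through the knockouts, so these ranks are not a test.

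**Figure D2:**
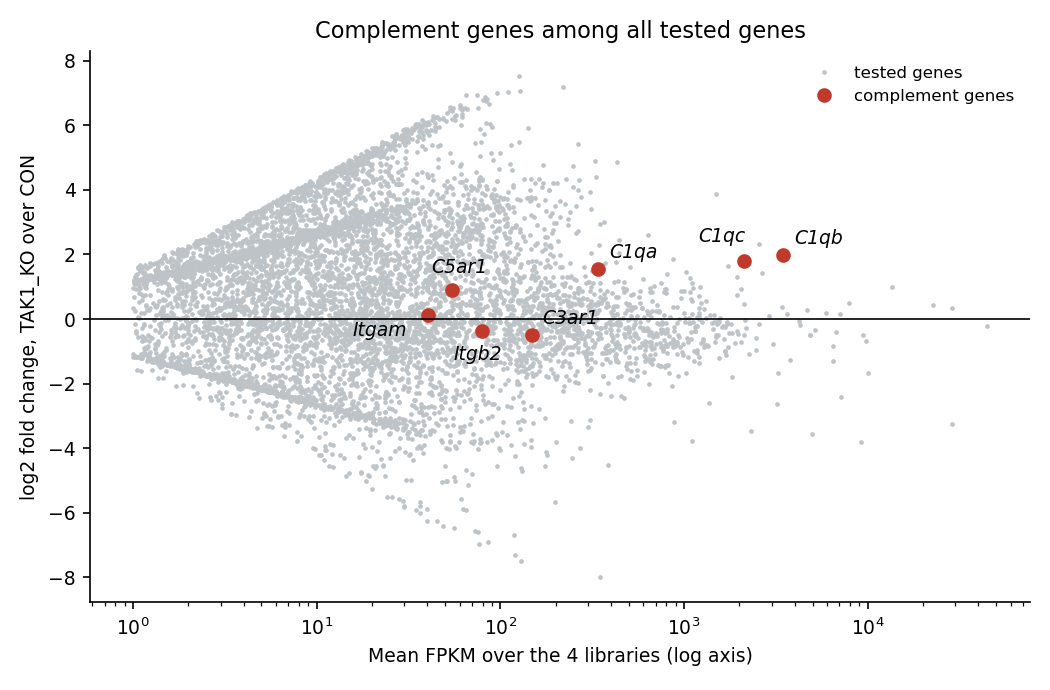
Log2 fold change, knockout over control, against mean FPKM over the 4 libraries on a log axis for the 7823 tested genes (grey) and the 7 tested complement genes (red). C1qb and C1qc, at 1.99 and 1.79, lie to the right, where fewer genes have changes of that size, and the receptor genes, from -0.49 for C3ar1 to 0.91 for C5ar1, lie within the cloud.

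The share of each chain did not separate the groups. C1qb made up 60.7% and 55.8% of the summed C1q FPKM in knockout 1 and 2, against 58.9% and 50.3% in control 1 and 2. C1qc made up 32.4% and 41.1% in the knockouts, against 35.3% and 44% in the controls. C1qa made up 6.9% and 3.08% in the knockouts, against 5.82% and 5.74% in the controls. The lowest C1qa share was that of knockout 2, the library in which C1qa lay within the control range. The groups overlapped for each share, and since FPKM is scaled to length, C1qa read the lowest of the chains per length in every library.

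Together the chains took 1.6% and 0.694% of all FPKM in the knockouts, against 0.332% and 0.192% in the controls. Their sum was 13168 and 5636 FPKM in the knockouts, against 3220 and 1662 FPKM in the controls, a log2 ratio of group means of 1.95. After median ratio scaling this log2 ratio was 1.09, and it was 1.21 without knockout 1.

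Microglia markers differed between the groups to unequal extents. Of 11 microglia markers, 7 read higher in both knockouts than in either control and 1, Cx3cr1, read lower. Over all tested genes 27.8% lay above both controls and 11.4% below. The ratio of group means, knockout over control, reached 18.3 for Sall1 and 5.33 for Tmem119, above that of summed C1q (3.85), and was 0.851 for Cx3cr1 and 0.742 for Fcrls. In bulk RNA, more cells of a type and more RNA per cell cannot be told apart. The geometric mean of FPKM + 1 over the 11 markers was 211 and 139 in the knockouts, against 84.2 and 77.2 in the controls. Divided by it, summed C1q was 62.4 and 40.6 in the knockouts, against 38.2 and 21.5 in the controls, 1.73-fold higher on average, with knockout 2 just above control 1. This separation rested on how the low marker Sall1 was treated. With no 1 added the ratios were 63.3 and 41.2 in the knockouts, against 49.5 and 23 in the controls, which overlapped, and over the 10 markers other than Sall1 they were 46 and 36.6 in the knockouts, against 25 and 16.6 in the controls.

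The divisor mattered for individual markers. Against Csf1r, the receptor of the microglial growth factor CSF1, summed C1q was 73 and 47.4 in the knockouts, against 51.6 and 16.4 in the controls. These groups overlapped. Against Cx3cr1, the fractalkine receptor, the ratio was 149 and 77.2 in the knockouts and 32 and 18.7 in the controls, with no overlap. Against P2ry12, a purinergic receptor of homeostatic microglia, it was 7.34 and 6.79 in the knockouts and 5.66 and 2.1 in the controls, again with no overlap. Against Siglech, a lectin of microglia, the direction of the means turned: the ratio was 47.7 and 15.3 in the knockouts and 80.9 and 10.2 in the controls, with overlap. Tmem119 gave 111 and 99.5 in the knockouts, against 105 and 684 in the controls, so the controls had the higher mean there too, as they did for Sall1, which read 0.07 FPKM in control 1.

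**Figure D3:**
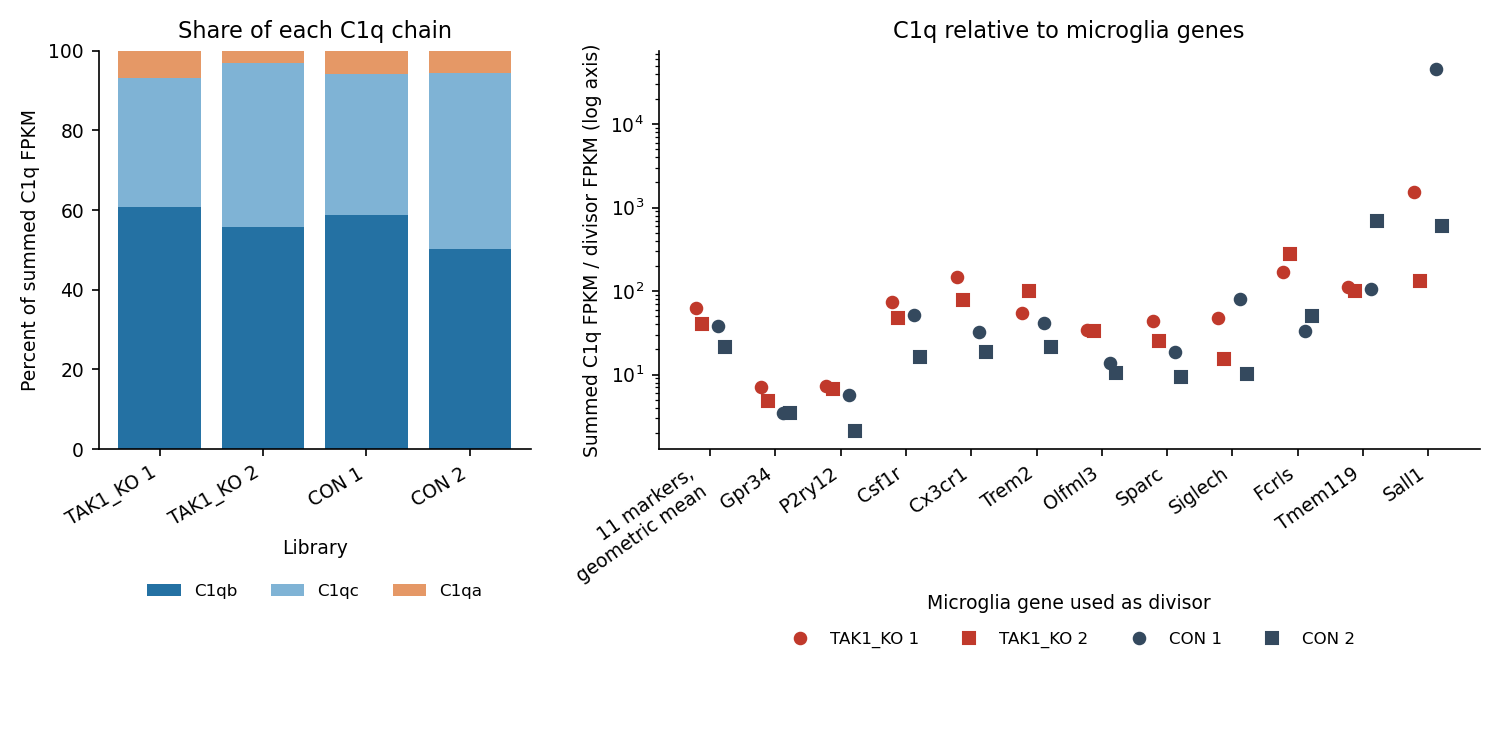
Left, percent of the summed C1q FPKM held by each chain in each library. Right, summed C1q FPKM divided by the FPKM of a microglia gene, or by the geometric mean of FPKM + 1 over all 11 of them, on a log axis, knockout (red) left of control (dark). The groups separate narrowly for the geometric mean, separate for Gpr34, P2ry12, Cx3cr1, Trem2, Olfml3, Sparc and Fcrls, and overlap for Csf1r, Siglech, Tmem119 and Sall1, where the controls have the higher mean for all but Csf1r.

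Summed markers of some other cells also differed between the groups, while those of neutrophils and retinal pigment epithelium overlapped and those of T and NK cells lay near 0. The counts of single markers read against the 27.8% of all tested genes above both controls and the 11.4% below. Summed FPKM of 7 monocyte markers was 2537 and 1897 in the knockouts, against 10134 and 16208 in the controls, with 3 of 6 tested below both controls. Lyz2 made up most of each sum, at 2484 and 1894 FPKM in the knockouts and 9227 and 14880 FPKM in the controls. Cd209a read 1.19 and 2.1 FPKM in the knockouts and 503 and 886 FPKM in the controls. Ccr2 read 1.81 and 0.59 FPKM in the knockouts and 316 and 151 FPKM in the controls. The other tested monocyte markers overlapped between the groups. Summed FPKM of 12 rod markers was 6197 and 9232 in the knockouts, against 2217 and 3226 in the controls, with 10 of 12 above both controls. Neither sum overlapped between the groups. Of 9 perivascular macrophage markers, cells that also make C1q, the sum was 190 and 840.1 FPKM in the knockouts, against 2223 and 1752 FPKM in the controls, with 0 of 8 tested above both controls and 2 below. Ms4a7 made up most of the control sums, at 189 and 155 FPKM in the knockouts and 1614 and 1547 FPKM in the controls. Clec12a, the other gene below both controls, read 0.36 and 0.48 FPKM in the knockouts and 144 and 199 FPKM in the controls. Other members were high in knockout 2 and low in knockout 1: Pf4 read 0.51 and 303 FPKM in the knockouts and 367 and 1.04 FPKM in the controls, and F13a1, Cbr2 and Lyve1 read 118.9, 96.7 and 61.8 FPKM in knockout 2 and under 1 FPKM in the other libraries. Cd163 read 0.02 FPKM or less in every library. For 10 Müller glia and astrocyte markers the sum was 959 and 677 FPKM in the knockouts, against 303 and 409 FPKM in the controls, with 1 of 7 tested above both controls and 2 below. Glul, the gene above both controls, made up most of these sums in the knockouts, at 774 and 599 FPKM, against 84.6 and 318 FPKM in the controls, and Gfap read 0.02 FPKM or less throughout. Neutrophil markers summed to 24.1 and 32.9 FPKM in the knockouts and 25.2 and 0.17 FPKM in the controls over 2 genes, and the 3 T and NK cell markers to 0.11 FPKM or less in each library. These lists were at or near 0 in at least 1 control. Endothelial and pericyte markers summed to 76.1 and 8.42 FPKM in the knockouts and 0.13 and 2.27 FPKM in the controls over 8 genes, and retinal pigment epithelium markers to 56.8 and 0.38 FPKM in the knockouts and 22.8 and 0.11 FPKM in the controls over 4. The part of these cells in the C1q result was not tested.

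C3 and C4b, the components that C1q acts on through its proteases, were at or near 0 FPKM in every library. C3 (chromosome 17, 57203967 to 57228136, minus strand) was listed at 0 in both knockouts and at 0.2 and 0 FPKM in control 1 and 2. C4b (chromosome 17, 34728139 to 34743902, minus strand) read 0.28 and 0 FPKM in the knockouts, against 0.01 and 0 FPKM in the controls. Neither reached the mean of 1 FPKM needed for the test, and low values in these libraries do not show that a gene was silent. C4b has a near-identical neighbour, C4a, not analysed here, so its reads may be divided between them.

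The receptor of C3a read lower in both knockouts, by an amount that depended on the scaling and on the genes it was set against. C3ar1 (chromosome 6, 122847140 to 122856157, minus strand) read 146 and 102 FPKM in the knockouts, against 155 and 192 FPKM in the controls. Knockout 1 and control 1 lay close together, and the groups did not overlap. The means were 124 ± 31.2 FPKM in knockouts and 173 ± 26.3 FPKM in controls (SD, n = 2 each), a gap no larger than the fold between the knockout libraries. The log2 fold change was -0.49 ± 0.80 (SE; 95% interval -2.44 to 1.46; limma adjusted p = 0.771), and it was -1.42 after median ratio scaling. Divided by the geometric mean of the 11 microglia markers, C3ar1 was 0.693 and 0.737 in the knockouts, against 1.84 and 2.48 in the controls, without overlap.

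The receptor of C5a showed no separation. C5ar1 (chromosome 7, 16246743 to 16259540, minus strand) read 46.3 and 99.05 FPKM in the knockouts, against 26.9 and 46.7 FPKM in the controls. Knockout 1 lay just below control 2, so the groups overlapped narrowly. The log2 fold change was 0.91 ± 1.15 (SE; 95% interval -1.89 to 3.72; limma adjusted p = 0.709). After median ratio scaling it was 0.00. Relative to the median of genes with a mean of 100 FPKM or more, C5ar1 was 1.12 under that scaling and 1.02 as deposited. Relative to the median of all tested genes it was -0.28 and -0.03. C5ar2, the other C5a receptor, read 40.3 and 72.3 FPKM in the knockouts, against 40.7 and 85.6 FPKM in the controls, with overlap.

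The subunits of complement receptor 3 did not separate the groups. Itgam (chromosome 7, 128062640 to 128118491, plus strand) read 14 and 83.2 FPKM in the knockouts, against 34.1 and 29.9 FPKM in the controls. The knockout libraries lay on both sides of the controls and 5.94-fold apart. Its log2 fold change was 0.11 ± 1.39 (SE; 95% interval -3.29 to 3.52; limma adjusted p = 0.981), and it was -1.13 without knockout 2, 1.36 without knockout 1, -0.78 after median ratio scaling and -0.64 after quantile normalization.

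Itgb2 (chromosome 10, 77530329 to 77565708, plus strand) read 44 and 95 FPKM in the knockouts, against 58.5 and 121 FPKM in the controls. Control 2 was highest, knockout 1 was lowest and the groups overlapped. The log2 fold change was -0.38 ± 1.06 (SE; 95% interval -2.97 to 2.21; limma adjusted p = 0.889), and it was -1.30 after median ratio scaling, -0.90 without control 1, -0.92 without knockout 2, 0.14 without control 2 and 0.17 without knockout 1. Median ratio scaling also lowered the median of genes with a mean of 100 FPKM or more. Relative to it Itgb2 was -0.18 and Itgam 0.34, against -0.27 and 0.22 as deposited. Relative to the median of all tested genes they were -1.58 and -1.06, against -1.32 and -0.83. Itgb2 read above Itgam in every library, by a factor of 3.14 and 1.14 in the knockouts and 1.72 and 4.06 in the controls. CD18 pairs with several alpha chains.

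**Figure D4:**
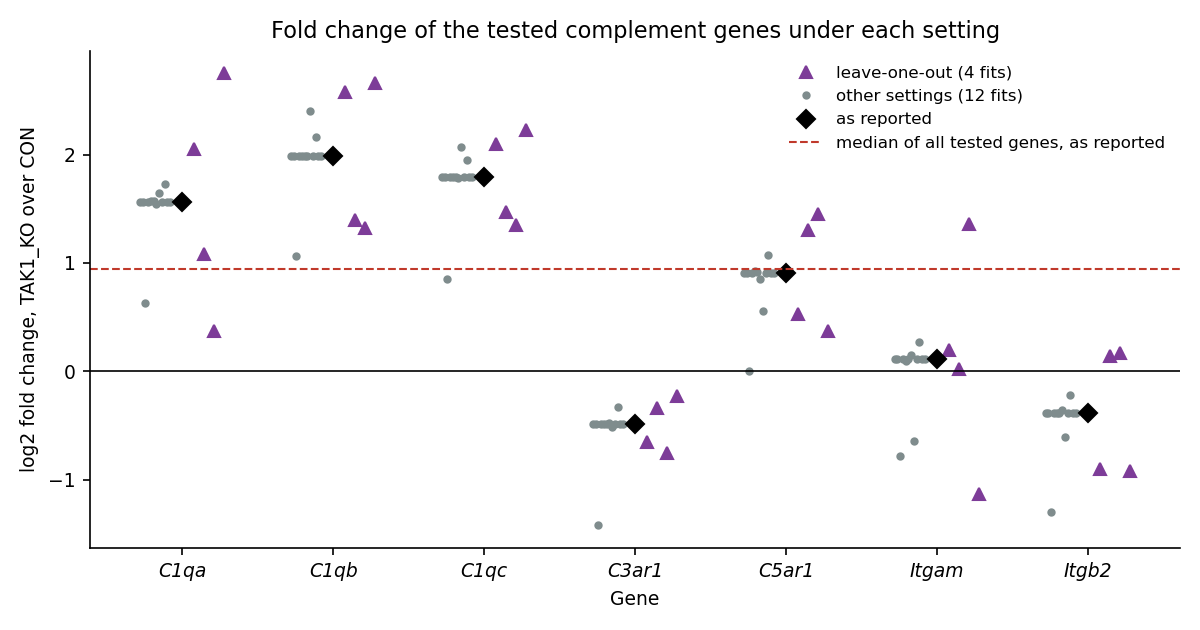
Log2 fold change, knockout over control, of the 7 tested complement genes as reported (diamonds), in 12 fits with other settings (grey points) and in 4 fits that leave out a library (triangles). The C1q chains stay above 0 in all 16 fits, with the widest range for C1qa, 0.37 to 2.75. Itgam and Itgb2 fall on both sides of 0. Fits that change only the filter, variance, block or threshold keep the reported fold change by construction.

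The other complement genes were mostly at low values. Of 75 further genes of the pathways, their regulators, receptors and partners, 51 were in the table, 20 of these read under 1 FPKM in every library, and 29 were tested. No gene passed the adjusted test, 8 had both knockouts higher than either control and 2 had both lower, and the median log2 fold change was 0.61. These counts read against the 27.8% and 11.4% of all tested genes given above.

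The enzymes and recognition molecules of the classical, lectin and alternative pathways mostly read at or near 0 FPKM. Of 6 classical and lectin genes in the table, Colec12, a scavenger collectin, was the 1 tested, at 0.04 and 20.4 FPKM in the knockouts and 41 and 0.17 FPKM in the controls, with no order by group. C2 and C1ra were listed at 0 in every library. Cfp, properdin of the alternative pathway, read 0 in both knockouts and 23.3 and 0 FPKM in control 1 and 2, and Cfb, its factor B, was listed at 0 throughout.

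Among regulators, the membrane inhibitor Cr1l, called Crry in mice, which blocks C3 activation on host cells, read 325 and 365 FPKM in the knockouts, against 226 and 138 FPKM in the controls. The groups did not overlap, and the log2 fold change was 0.96 (limma adjusted p = 0.698), against a median of 0.94 for all tested genes and -0.11 for those with a mean of 100 FPKM or more. Clu, clusterin, read 86.9 and 3.32 FPKM in the knockouts, against 48.6 and 81.9 FPKM in the controls, with overlap. Vtn, vitronectin, which inhibits the membrane attack complex and also marks pericytes, read 96.1 and 29.3 FPKM in the knockouts, against 0.12 and 0.16 FPKM in the controls, and did not pass (limma adjusted p = 0.559). Of 4 tested regulators, 3 lay above both controls, where 27.8% of all tested genes did, and 0 below. The third of them, Susd4, read 5.87 and 0.02 FPKM in the knockouts and 0 in both controls.

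Among receptors and C1q-binding proteins, Lair1, an inhibitory receptor for collagen and C1q, read 254 and 171 FPKM in the knockouts, against 117 and 98.5 FPKM in the controls. These groups did not overlap, and Lair1 did not pass (log2 fold change 0.95, limma adjusted p = 0.698). Calr, calreticulin, which binds C1q collagen tails, read 135 and 29.1 FPKM in the knockouts, against 47.6 and 13.6 FPKM in the controls, with overlap. Of 8 tested genes in this list 2 lay above both controls and 0 below, against 27.8% and 11.4% of all tested genes. Itgax, the alpha chain of complement receptor 4, read 0.06 and 0.03 FPKM in the knockouts, against 0.12 and 3.71 FPKM in the controls.

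For integrin activation, Rap1b, the small GTPase that switches integrins on, read 1717 and 1265 FPKM in the knockouts, against 2303 and 1717 FPKM in the controls. The libraries knockout 1 and control 2 were almost equal. Apbb1ip, its effector RIAM, read 0.12 and 16.4 FPKM in the knockouts, against 20.2 and 17.4 FPKM in the controls, and Icam1, a ligand of these integrins, read 26.5 and 0.11 FPKM in the knockouts, against 27.2 and 0.1 FPKM in the controls. Of 6 tested genes 1 lay above both controls and 2 below, against 27.8% and 11.4% of all tested genes. Their median log2 fold change was -0.36.

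For the G proteins that carry anaphylatoxin receptor signals, Gnai2, an inhibitory alpha subunit, read 22 and 52.2 FPKM in the knockouts, against 5.14 and 0.86 FPKM in the controls. Gnb1, a beta subunit also abundant in rods, read 866 and 2522 FPKM in the knockouts, against 727 and 757 FPKM in the controls. Gnai3 read 69.1 and 51.4 FPKM in the knockouts, against 75.5 and 0.26 FPKM in the controls. Both Gnai2 and Gnb1 lay above the controls, and these were the 2 of 9 tested genes that did so, against 27.8% of all tested genes. Rod markers were higher in the same libraries, and their part in the Gnb1 values was not tested.

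**Figure D5:**
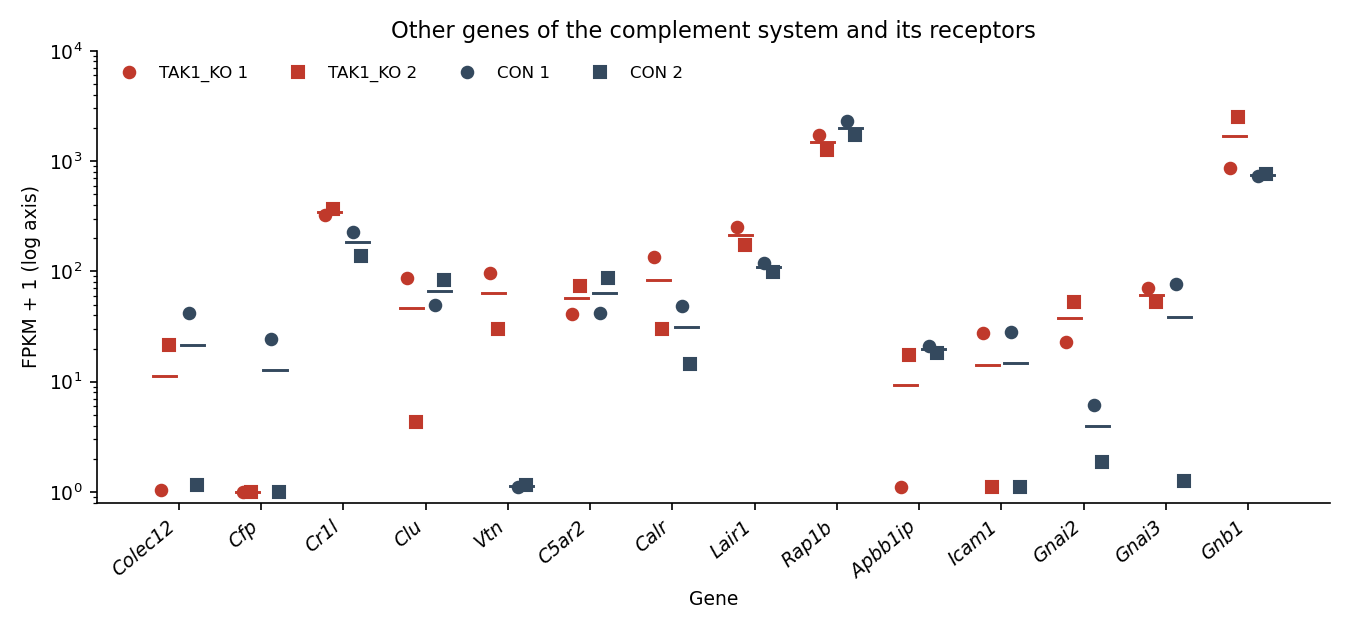
FPKM + 1 on a log axis for the most abundant tested genes of each further complement list, knockout (red) left of control (dark), with circles for library 1, squares for library 2 and lines at group means. Cr1l, Vtn, Lair1, Gnai2 and Gnb1 read higher in both knockouts, while Colec12, Cfp, Vtn, Icam1, Apbb1ip and Gnai3 are near 0 in at least 1 library.

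The genes nearest to the mean C1q profile over the 4 libraries, by Euclidean distance on the centred log2(FPKM + 1) scale among 1173 genes with a mean of 100 FPKM or more, were Psmb3, Leprot, Slc25a5, Serinc3 and Rnase4. Psmb3, a proteasome subunit, was nearest at a distance of 0.341, and read 821 and 325 FPKM in the knockouts, against 251 and 97.3 FPKM in the controls. Leprot and Rnase4 share first exons with the neighbouring genes Lepr and Ang, so reads may be divided between them. Apart from Psmb3, the genes named lay at 0.638 to 0.705, where the chains themselves lay at 0.309 for C1qb, 0.507 for C1qc and 0.637 for C1qa. The chains make up the mean profile, which draws them near it by construction, so their distances do not compare with those of other genes. With 4 libraries many genes can share a profile, and no p is given.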

How the data were processed

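Per the labels' protocols, 200 sorted cells per library were lysed, and their full-length cDNA was amplified and fragmented with a transposon. The authors deposited 1 FPKM per gene and library, with 2 decimals. The submitters' processing notes name the build mm10; the aligner, like the quantifier and annotation, is not given in the sources used here. Read counts cannot be had from FPKM, so depth is unknown and no counting interval is given.

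Columns were matched to the 4 samples by title. The 7823 genes averaging 1 FPKM or more were tested on log2(FPKM + 1) by limma (version 3.58.1, R version 4.3.3), with a trend in the prior variance, 3.99 prior and 2 residual degrees of freedom and a Benjamini-Hochberg threshold of 0.05. This scale understates the change of low genes. The code was tested on simulated data of abundant genes with a capped spread and changes larger than those of C1q. That does not measure its power here.

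The members, lists and tests were chosen with earlier results of these data known. Named beside the 9 members were up to 3 genes of highest mean FPKM per list, and the 5 genes nearest to the C1q profile; Itgax, C2, C1ra, Cfb, Csf1r, Cx3cr1, Trem2, Olfml3, Sparc, Siglech, Sall1, Tmem119, Fcrls, F13a1, Cbr2, Lyve1, Cd163, Gfap, Susd4 and Map3k7 were named after their values were seen, as were the marker ratios. Some genes of the lists are not reported here and were left out of their counts. Positions are RefSeq GRCm38.p6, and exons GENCODE M21. Alternatives were other pseudocounts, filters, scalings and variances, the replicate number as a block, an adjusted p under 0.1 and each library left out; those for the summed C1q ratio were chosen after the data were seen. Figures used matplotlib 3.10.9.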

Additional observations from a re-analysis of the deposited data

How the results depend on the processing

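C1qa, C1qb and C1qc kept a positive and C3ar1 a negative log2 fold change in all 16 alternatives each. Over the 7 tested complement genes 104 of 112 values kept direction and call. Alternatives that changed only the filter, variance, block or threshold could not alter the fold change, so their direction was fixed in advance. Itgam turned to -0.78 after median ratio scaling and -0.64 after quantile normalization, and C5ar1 to 0.00 (just below 0) after median ratio scaling. Leaving out each library gave -1.13 to 1.36 for Itgam and -0.92 to 0.17 for Itgb2. The cause was not tested. With the replicate number as a block, 15 genes were called higher, 20 lower and 2 complement genes were called, C1qb (adjusted p = 2.65e-06) and C1qc (adjusted p = 0.00545), against 0 without it; over the other 15 alternatives their adjusted p ran from 0.0808 to 0.705 and from 0.159 to 0.69. Deviations of same-numbered libraries correlated at 0.02 over genes. A value over all genes cannot decide whether libraries were paired, and the labels do not say. For C1qb and C1qc library 1 was the higher in both groups. Quantile normalization called 2 genes higher and 4 lower, and leaving out each library called 0 to 1306 higher and 0 to 5 lower, none a complement gene. In the fits without a library, the lone library of a group is assumed to vary like the other group. Their counts of called genes are therefore not read as results. Without knockout 1 or without knockout 2, nearly all genes called higher were low in both controls. Of genes with an unadjusted p under 0.05, 78.9% were higher, against 42.8% after median ratio scaling and 57.6% after quantile normalization; the median of all genes was 0.28 and 0.12 there.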
